A study of Mus musculus with 4 samples.

Results

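Casp8, Fadd, Fas, Ripk3, Mlkl, Cflar, Bcl2l1, Mcl1 and Xiap encode proteins that decide whether a cell survives a death signal such as TNF (tumor necrosis factor). They were taken as the rows of the deposited gene table that carry these symbols, which were 9 of 30360 genes, and each symbol belonged to 1 row. Their transcripts were counted in single cells of colonic organoids, epithelial cultures grown from the distal colon of 16-week-old mice. Of the 4 groups, the first pair was wildtype, untreated and then with TNF, and the second pair was Tnfr2-/-, likewise untreated and then with TNF, with 1 library for each group. After passage 5 the TNF cultures received 20 ng/ml on day 1 and kept it up to day 6, and every culture was dissociated on day 7. One label field calls the cultures without TNF vehicle. Tnfr2-/- mice (the tm1Mwm allele, per the study's methods) carry a whole-body disruption of Tnfrsf1b, the gene of TNF receptor 2, in epithelium and mesenchyme alike. All cultures were depleted of Annexin V-binding (apoptotic) cells before the libraries were made, so the cells counted were those not removed by that step. Where 4 values follow one another, they stand in the order of the groups above.

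When TNF or FAS ligand occupies a death receptor, the adaptor FADD recruits caspase-8, which can start apoptosis, and cFLIP, the product of Cflar, competes for the same site and holds caspase-8 in check. Where caspase-8 is not active, RIPK3 phosphorylates MLKL, which permeabilises the plasma membrane in the lytic death called necroptosis. BCL-XL (Bcl2l1) and MCL1 keep the mitochondrial membrane closed, and XIAP blocks caspases further down. In the intestinal epithelium loss of Casp8 or of Fadd is known to lead to necroptosis, and NF-kB induces several of the survival genes.

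The libraries held 2589, 1469, 1117 and 980 cells and 87228093, 56063515, 53178273 and 44547639 UMIs (unique molecular identifiers, each standing for 1 captured transcript). Of 6155 cells, 4172 belonged to 7 deposited epithelial classes and 1948 to 4 deposited mesenchymal classes, and 35 had no class. Epithelial markers summed to 10684 to 13560 CPM (a gene's UMIs scaled to a fixed total of UMIs of the same cells) in the epithelium and 131 to 775 in the mesenchyme, and mesenchymal markers to 9202 to 15086 in the mesenchyme and 5.21 to 22.8 in the epithelium. Immune and endothelial markers stayed at or below 7.64 and 3.32 CPM. Progenitor.1 held 546, 335, 647 and 95 cells, and Progenitor.2 held 62, 273, 233 and 716. Progenitor.2 held 3.34%, 30.7%, 19.6% and 84.8% of epithelial UMIs, so a sum over the epithelium weights the classes differently in each library. In such a sum fewer cells of a type and less RNA per cell cannot be told apart. Only 3 cell barcodes occurred in more than 1 library. Tnfrsf1b was at 4.17, 12.1, 1.82 and 6.89 CPM in the epithelium. Its reads did not vanish in Tnfr2-/- cells, and since the sources used here do not say which part of the gene is deleted, 3' counts do not check the genotype. By qPCR, the study reports no Tnfr2 transcript in its Tnfr2-/- colonoids. Tnfrsf1a, the gene of TNF receptor 1, was at 30.9, 30.1, 33.9 and 31.4 CPM.

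Cflar and Casp8 are neighbours on mouse chromosome 1, both on the plus strand, with 36489 bases between the end of Cflar (58711508 to 58758884) and the start of Casp8 (58795374 to 58847503; GENCODE M21 on GRCm38). The stretches just upstream of their RefSeq start sites are shown because both genes were higher with TNF in both genotypes over the epithelium, and the 10-letter NF-kB consensus was searched there on both strands. The Casp8 window is chr1:58802252-58802501 and the Cflar window is chr1:58711241-58711490, each 250 bases on the plus strand of GRCm38.p6 and written 5' to 3'. The Casp8 window lies inside the longer GENCODE span of the gene, since the RefSeq start site is further in.
Casp8: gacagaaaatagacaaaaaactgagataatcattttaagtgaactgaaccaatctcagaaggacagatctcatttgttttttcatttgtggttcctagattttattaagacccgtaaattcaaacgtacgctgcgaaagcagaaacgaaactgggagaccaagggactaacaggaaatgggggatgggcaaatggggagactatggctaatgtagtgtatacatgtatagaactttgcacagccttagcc
Cflar: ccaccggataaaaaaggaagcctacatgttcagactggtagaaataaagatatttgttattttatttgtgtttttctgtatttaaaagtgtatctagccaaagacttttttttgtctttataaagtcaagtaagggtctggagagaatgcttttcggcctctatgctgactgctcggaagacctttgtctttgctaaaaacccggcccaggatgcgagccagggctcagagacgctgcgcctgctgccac
The consensus was in neither window, which says only that these letters are absent from them. All 9 genes had a RefSeq entry, with 13 windows among them, and 1 window held the consensus. It belonged to Bcl2l1 on the minus strand of chromosome 2, and its match began 242 bases before the start site. That window lies inside the GENCODE span of Bcl2l1 (152780668 to 152831728) and overlaps an annotated untranslated region, and the gene's other windows held no match. The match is printed with its flanks, in capitals, at chr2:152830940-152830967 on the minus strand, and was picked out after the values of Bcl2l1 had been seen.
Bcl2l1: tgtttgtgGGGGGTCTCCagcatacgcc
Of 32851 such windows of all genes, 7.25% held the consensus, so 1 of 13 windows is close to that share.

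A gene was counted as past the fold where log2(CPM + 1) differed by at least the log2 of 1.5 and the gene reached 5 CPM in 1 library of the pair. Fold changes here are on that scale. No test between groups was run, as each had 1 library, and the 95% Poisson intervals given cover counting error only. Fas stayed below 5 CPM in every epithelial sum, so 8 of the 9 genes could be counted there. With TNF, 2 of 8 were past the fold in wildtype epithelium (Casp8 and Cflar, both higher), where 11.1% of all genes tested were. In Tnfr2-/- epithelium 5 of 8 were past the fold with TNF (Casp8, Cflar and Bcl2l1 higher, Fadd and Mlkl lower), where 34.7% of all genes were. Between genotypes, 3 of 8 passed it without TNF (Cflar and Bcl2l1 higher in Tnfr2-/-, Mcl1 lower), beside 19.4% of all genes, and 4 of 8 with TNF (Cflar and Bcl2l1 higher, Fadd and Mlkl lower), beside 32.5%. With so few genes, shares of this kind do not set them apart from the background. The median difference of the 8 genes was 0.06, 0.16, 0.07 and -0.06 in these 4 comparisons, and that of all genes tested was 0.06, -0.15, 0.14 and -0.13. Relative to the latter median the counts were 2, 3, 2 and 3 of 8. The comparisons share libraries and are not independent of one another.

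**Figure D1:**
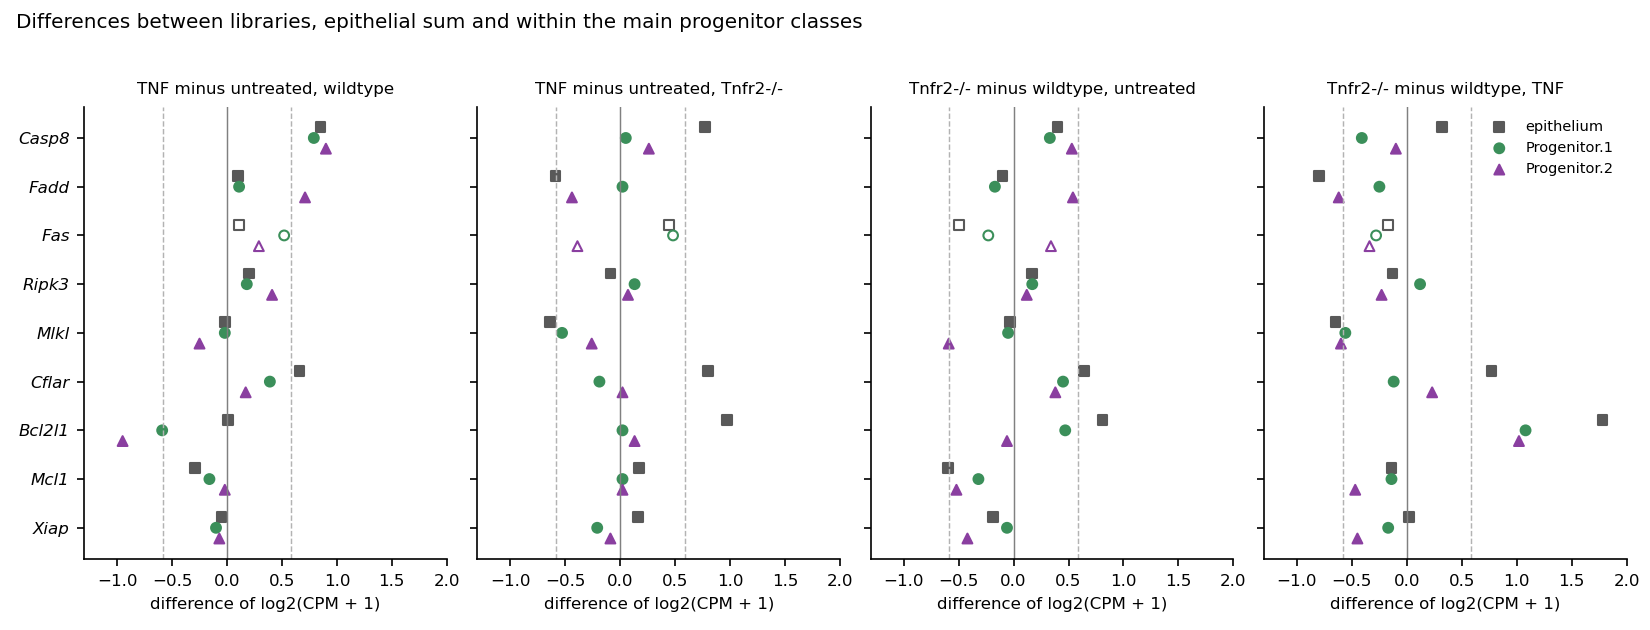
Difference of log2(CPM + 1) (horizontal axis) of the 9 genes (vertical axis) in the 4 comparisons, with squares for all epithelial cells, circles for Progenitor.1 and triangles for Progenitor.2. Open symbols are genes below 5 CPM in both libraries, and dashed lines mark a 1.5-fold difference. In the Tnfr2-/- TNF comparison the squares of Casp8 and Cflar, at 0.77 and 0.80, lie to the right of both of their within-class symbols.

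**Figure D2:**
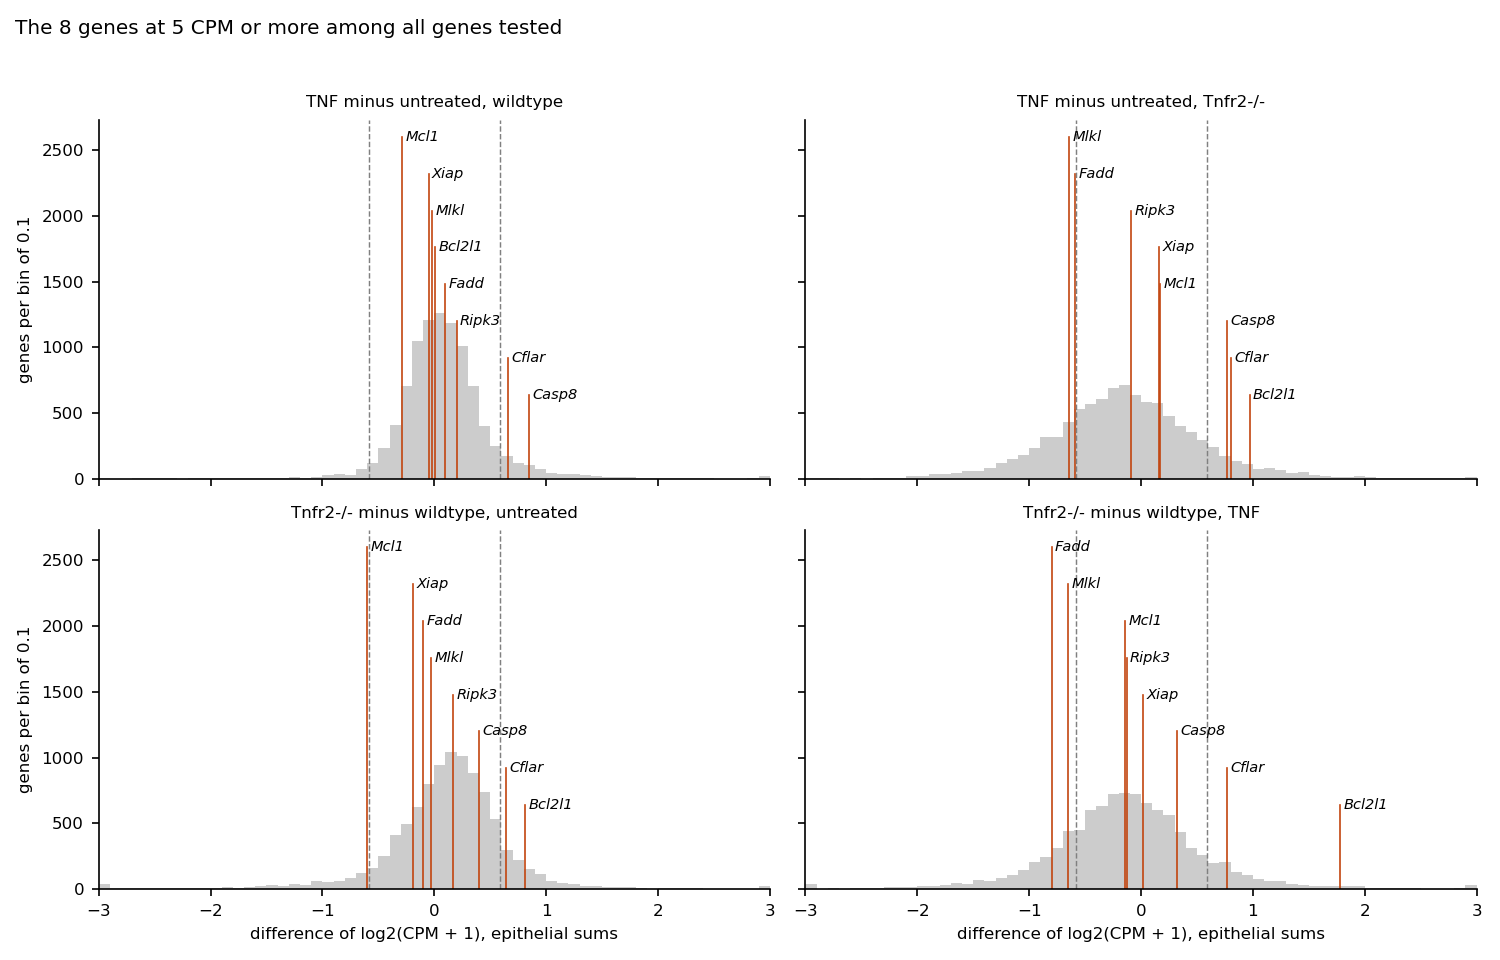
Histograms of the difference of log2(CPM + 1) of all genes tested in the epithelium (bins of 0.1, values beyond 3 either way in the end bins) in the 4 comparisons. Red lines mark the 8 counted genes at their own differences, and their height carries no value. Bcl2l1, at 1.78, lies far to the right between genotypes with TNF, and the other lines lie nearer the bulk of the genes.

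The same counts were made within classes. In Progenitor.1, 2 of 8 genes were past the fold with TNF in wildtype cells (Casp8 higher, Bcl2l1 lower), where 9.08% of all genes tested were. In Tnfr2-/- cells 0 of 8 were, beside 7.80% of all genes. Between genotypes 0 of 8 passed it without TNF, beside 11.3% of all genes, and 1 of 8 with TNF (Bcl2l1, higher in Tnfr2-/-), beside 15.0%. In Progenitor.2, 3 of 8 were past the fold with TNF in wildtype cells (Casp8 and Fadd higher, Bcl2l1 lower), beside 26.3% of all genes. In Tnfr2-/- cells 0 of 8 were, beside 9.45%. Between genotypes in Progenitor.2, 1 of 8 passed it without TNF (Mlkl, lower in Tnfr2-/-), beside 26.8% of all genes, and 3 of 8 with TNF (Bcl2l1 higher, Fadd and Mlkl lower), beside 22.3%. The Progenitor.2 library of wildtype untreated cells had 62 cells with a median of 15574.5 UMIs, against 33685 to 39167 in the other libraries, and the wildtype TNF comparison and the untreated genotype comparison of this class rest on it.

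Casp8, the initiator caspase, was at 73.3, 133, 97.3 and 167 CPM in the epithelium (intervals 70.9 to 75.7, 130 to 137, 94.6 to 100 and 163 to 171). Both TNF libraries lay above both untreated ones, by 0.85 in wildtype and 0.77 in Tnfr2-/- cells on the log2 scale. The same difference took different forms within the classes. Casp8 was at 67.8, 118, 85.5 and 88.7 CPM in Progenitor.1 and at 104, 195, 151 and 181 in Progenitor.2. With TNF it was higher by 0.79 and 0.90 within these classes in wildtype cells, and by 0.05 and 0.26 in Tnfr2-/- cells. It was higher with TNF in 5 of 5 wildtype epithelial classes that had 20 cells in both libraries (0.56 to 1.46), with counting intervals apart in 4, whereas 2 classes could be compared in Tnfr2-/- cells.

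Progenitor.2 carried more Casp8 than Progenitor.1 in all 4 libraries, by 0.61 to 1.02. It contributed 4.74%, 44.9%, 30.4% and 92.2% of the epithelial Casp8 UMIs. When only class shares were let vary between the Tnfr2-/- libraries, over the classes with 20 cells in both, the difference with TNF was 0.52, and when only levels within classes varied it was 0.12, out of 0.76 over those classes. In wildtype cells the same figures were 0.17, 0.81 and 1.01. Thus the TNF difference of the Tnfr2-/- sum went mostly with the share of Progenitor.2 and that of the wildtype sum mostly with the level within classes. After thinning each cell to 10000 UMIs, 45.0%, 61.1%, 56.8% and 57.0% of Progenitor.1 cells had a Casp8 UMI (89.4%, 95.8%, 93.0% and 93.7% unthinned). The mesenchyme, which also expresses the gene and is no blank, gave 22.8%, 30.0%, 21.7% and 20.0%.

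Casp8 was an epithelial gene by level. Over libraries its median was 166 CPM (104 to 195) in Progenitor.2, the highest median of 11 classes, and 26.5 in Mesenchyme-generic, the lowest. The range of Progenitor.2 overlapped those of Progenitor.1 (67.8 to 118) and Progenitor.3 (42.9 to 120). In the mesenchyme it was at 27.1, 38.3, 31.2 and 27.2 CPM, lower than in the epithelium of the same library by 1.40 to 2.57 on the log2 scale.

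**Figure D3:**
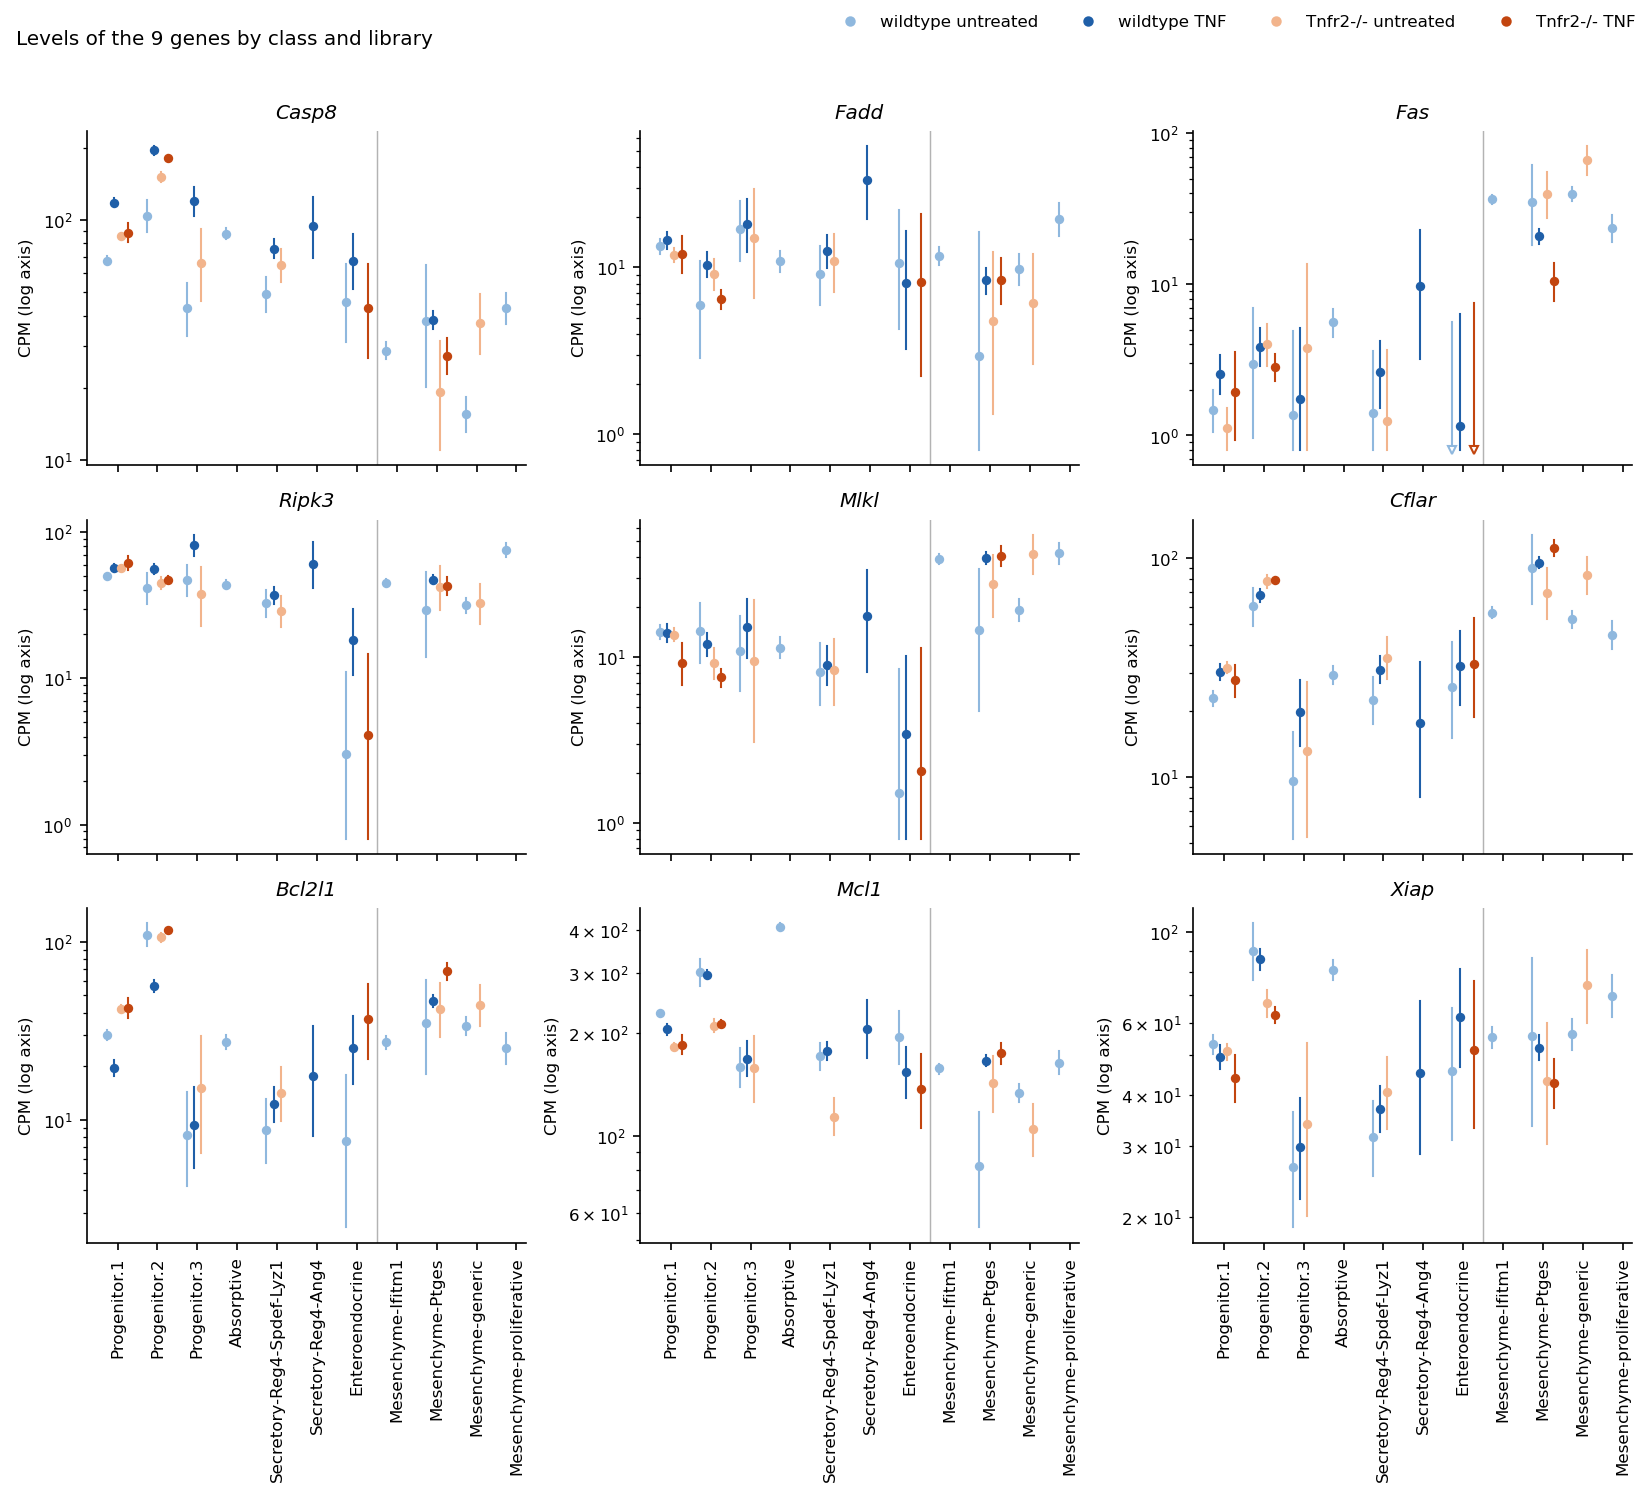
Level of each of the 9 genes (CPM, log axis) in each deposited class of at least 20 cells, with 1 coloured point per library and its 95% Poisson interval. The vertical line separates 7 epithelial from 4 mesenchymal classes, and open triangles at the foot mark classes with 0 UMIs, where intervals are also clipped. Casp8 falls and Fas rises from the epithelial to the mesenchymal side, and Cflar and Bcl2l1 stand higher in Progenitor.2 than in Progenitor.1 in each library.

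Cflar, the inhibitor of caspase-8, was at 25.8, 41.4, 40.7 and 71.6 CPM in the epithelium (intervals 24.4 to 27.3, 39.5 to 43.4, 39.0 to 42.5 and 68.9 to 74.2). Wildtype untreated cells were lowest and Tnfr2-/- TNF cells highest, and the other libraries were alike within counting error. The differences were 0.66 and 0.80 with TNF and 0.64 and 0.77 between genotypes. Within Progenitor.1 the levels were 22.9, 30.2, 31.6 and 27.7 CPM, and within Progenitor.2 60.2, 67.8, 78.5 and 79.4. None of the 8 differences inside these classes passed the fold, and the TNF difference in Tnfr2-/- Progenitor.1 had the opposite sign, -0.19.

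Cflar was higher with TNF in 5 of 5 wildtype epithelial classes (0.17 to 0.99), with counting intervals apart in 1. It was higher in Progenitor.2 than in Progenitor.1 in 4 of 4 libraries, by 1.14 to 1.49, and Progenitor.2 held 7.77%, 50.2%, 37.7% and 94.2% of its epithelial UMIs. Class shares alone gave a TNF difference of 0.78 in Tnfr2-/- cells, and levels within classes gave -0.10, out of 0.79. In wildtype cells shares alone gave 0.48 and levels alone 0.38, out of 0.77. The mesenchyme had more Cflar than the epithelium in every library, at 54.3, 95.2, 78.5 and 111 CPM. Both mesenchymal TNF levels were above the untreated ones, by 0.80 in wildtype, past the fold, and 0.49 in Tnfr2-/- cells. The mesenchymal classes also differed. Mesenchyme-Ptges made up nearly all mesenchyme of the TNF libraries and few of the wildtype untreated cells (34 of 1430). In that class wildtype Cflar was at 90.5 CPM untreated (31 UMIs) and 95.5 with TNF, a difference of 0.08 with overlapping counting intervals. In Tnfr2-/- cells of that class the difference was 0.66, with counting intervals apart.

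The balance of Cflar against Casp8, taken as the difference of their log2(CPM + 1), can be compared between libraries though not read as a ratio of proteins. It was -1.47, -1.66, -1.24 and -1.21 in the epithelium and -0.78, -1.51, -0.94 and -1.18 in Progenitor.2. In Progenitor.1 it was -1.52, -1.93, -1.41 and -1.64. The balance was lower with TNF in both progenitor classes of both genotypes. In Tnfr2-/- Progenitor.1 the TNF differences of Casp8 (0.05) and Cflar (-0.19) both had overlapping counting intervals. In Progenitor.2 those of Cflar overlapped in wildtype (0.17) and Tnfr2-/- cells (0.02). In the mesenchyme the balance was 0.98, 1.29, 1.30 and 1.99, higher with TNF in both genotypes. Within Mesenchyme-Ptges, wildtype Cflar and Casp8 differed with TNF by 0.08 and 0.02, on 31 and 13 untreated UMIs. In Tnfr2-/- cells of that class they differed by 0.66 and 0.48, on 58 and 16 untreated UMIs.

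**Figure D4:**
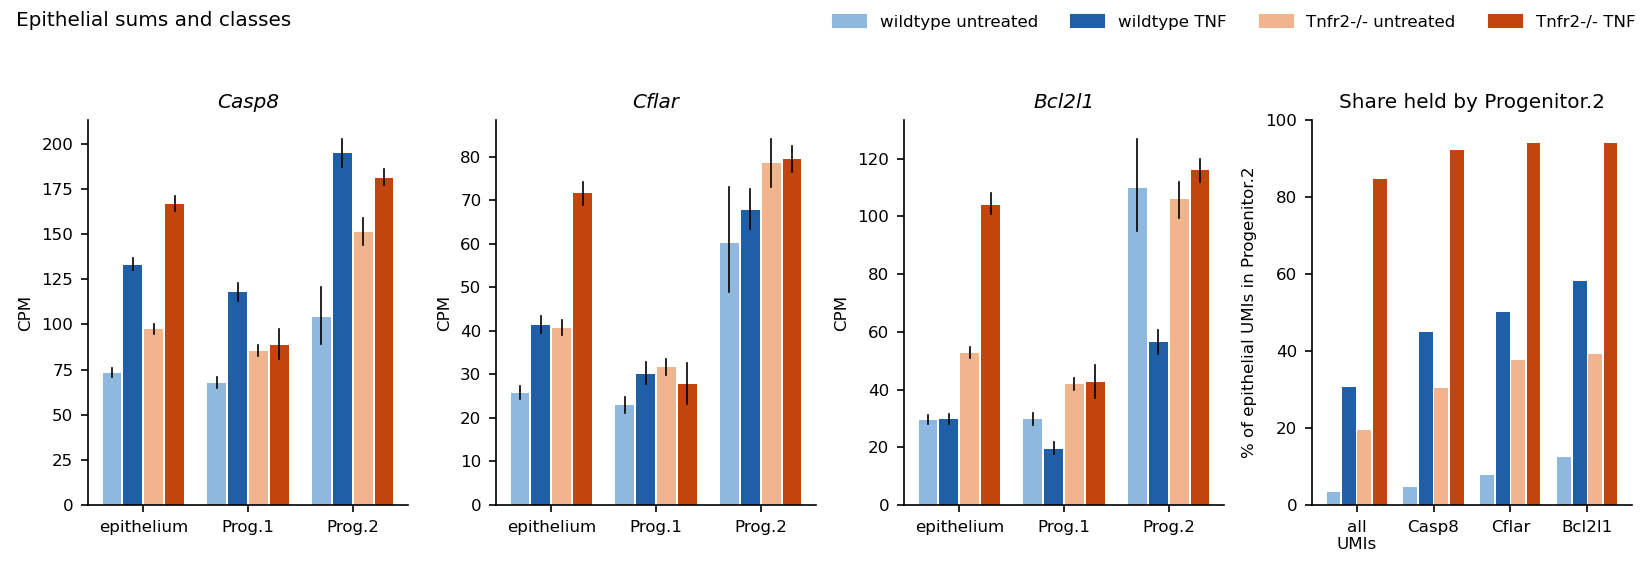
Level of Casp8, Cflar and Bcl2l1 (CPM, bars from 0 with 95% Poisson intervals) in the epithelium, Progenitor.1 (Prog.1) and Progenitor.2 (Prog.2) of the 4 libraries, and, in the last panel, the percentage of epithelial UMIs in Progenitor.2 for all UMIs and for each gene. Progenitor.2 held 84.8% of all epithelial UMIs and 92.2% to 94.2% of those of the 3 genes in the Tnfr2-/- TNF library.

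Fadd, the adaptor that joins death receptors to caspase-8, was at 12.2, 13.2, 11.3 and 7.17 CPM in the epithelium. Only the Tnfr2-/- TNF library stood apart, lower by 0.59 than its untreated control and by 0.80 than wildtype TNF. Fadd was the reverse of Cflar in the progenitors, being lower in Progenitor.2 than in Progenitor.1 in 4 of 4 libraries (by 0.36 to 1.06, with intervals apart in 3). In Progenitor.1 it was at 13.5, 14.6, 11.9 and 12.1 CPM, and in Progenitor.2 at 5.96, 10.4, 9.08 and 6.43. The wildtype untreated Progenitor.2 value rests on 10 UMIs and its interval overlaps that of wildtype TNF. Fadd has an antisense gene, Faddos. The sources used here give no strand setting for the counting, and whether Faddos reads enter the Fadd count was not tested.

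Fas, the receptor of FAS ligand, was a mesenchymal gene in these cultures. It was at 35.7, 20.8, 55.1 and 10.5 CPM in the mesenchyme and at 2.82, 3.12, 1.70 and 2.66 in the epithelium. Mesenchyme supplied 88.5%, 70.3%, 57.4% and 32.1% of a library's Fas UMIs while holding 39.9%, 26.2%, 4.09% and 10.7% of all its UMIs. The epithelial level was 7.90%, 15.0%, 3.08% and 25.4% of the mesenchymal one, and the summed mesenchymal markers in the epithelium were 0.0917%, 0.229%, 0.0364% and 0.0841% of their mesenchymal sum. The share for Fas was above that for the markers in all 4 libraries. Fasl, the ligand gene, was listed at 0 CPM in 3 epithelial libraries and at 0.0251 in Tnfr2-/- TNF, and at 0 in each mesenchyme.

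Both TNF mesenchymes had less Fas than their untreated controls, by 0.75 in wildtype and 2.29 in Tnfr2-/- cells on the log2 scale. In Mesenchyme-Ptges, the class with cells in all 4 libraries, Fas was at 35.0, 20.8, 39.6 and 10.5 CPM, with 34, 304, 37 and 122 cells. The untreated values of that class rest on 12 and 33 UMIs, and the interval of the wildtype one (18.1 to 61.2) includes the wildtype TNF value. In Tnfr2-/- cells the intervals of 27.3 to 55.7 and 7.78 to 13.8 did not overlap. The median of Fas was highest in Mesenchyme-generic, at 53.1 CPM, which had 20 cells only in the untreated libraries. Among wildtype untreated cells it was at 39.8 CPM there, 36.4 in Mesenchyme-Ifitm1 and 35.0 in Mesenchyme-Ptges, with overlapping intervals. Enteroendocrine had a median of 0, on 0, 1 and 0 UMIs, with upper bounds of 5.62 to 7.56 CPM.

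Ripk3 encodes the kinase of necroptosis and Mlkl its effector. Ripk3 was at 46.2, 53.3, 52.0 and 48.7 CPM in the epithelium and 45.1, 47.3, 36.7 and 43.2 in the mesenchyme, and all 4 epithelial comparisons stayed within 0.20 of 0. It was higher with TNF in 5 of 5 wildtype epithelial classes, by 0.17 to 2.26, the upper end coming from Enteroendocrine, and it was past the fold with TNF in wildtype Progenitor.3 (47.0 and 81.3 CPM, untreated and TNF). Enteroendocrine held the lowest Ripk3 of the 11 classes, at 3.05, 18.4 and 4.10 CPM in the 3 libraries with 20 cells of it (wildtype untreated, wildtype TNF and Tnfr2-/- TNF). These rest on 2, 16 and 2 UMIs, and their counting intervals overlapped. Progenitor.1 had slightly more Ripk3 than Progenitor.2 in all 4 libraries, by 0.03 to 0.38.

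Mlkl was at 12.7, 12.5, 12.4 and 7.62 CPM in the epithelium, so the Tnfr2-/- TNF library alone was lower, by 0.64 against its untreated control and by 0.65 against wildtype TNF. The same library was lowest in Progenitor.1 (14.2, 14.0, 13.6 and 9.17 CPM) and Progenitor.2 (14.3, 11.9, 9.18 and 7.53). Against its untreated control the difference was -0.53 in Progenitor.1, with counting intervals apart, and -0.26 in Progenitor.2, with overlapping intervals. Against wildtype TNF it was -0.56 and -0.60, with intervals apart in both classes. In the mesenchyme Mlkl was at 34.2, 39.6, 36.7 and 40.9 CPM, higher than in the epithelium of every library by 1.36 to 2.28. Its TNF and genotype differences in the mesenchymal sum were 0.05 to 0.21. Within Mesenchyme-Ptges the TNF difference was 1.38 in wildtype, on 5 untreated UMIs with counting intervals apart. In Tnfr2-/- cells of that class it was 0.55, with overlapping intervals. Within Mesenchyme-generic, untreated Tnfr2-/- cells were 1.08 above wildtype ones (42.0 and 19.3 CPM), with intervals apart. Gm45712 overlaps Mlkl on the opposite strand, and whether its reads enter the Mlkl count was not tested. On the same strand, Gm37760 overlaps Casp8 and Gm27818 overlaps Fas, and their part in those counts was not tested either.

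Bcl2l1, which encodes the mitochondrial survival protein BCL-XL, gave the widest difference of the 8 genes counted in the epithelium. It was at 29.6, 29.8, 52.7 and 104 CPM in the epithelium (intervals 28.2 to 31.2, 28.2 to 31.5, 50.8 to 54.8 and 101 to 108). The wildtype libraries were indistinguishable and both Tnfr2-/- libraries were higher. The genotype difference was 0.81 without TNF (1.75-fold) and 1.78 with TNF (3.43-fold). The difference between the TNF and untreated libraries was 0.01 in wildtype and 0.97 in Tnfr2-/- cells.

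The flat wildtype sum held opposing parts. Bcl2l1 was at 29.9, 19.5, 41.8 and 42.5 CPM in Progenitor.1 and at 110, 56.5, 106 and 116 in Progenitor.2. In wildtype cells TNF was accompanied by lower levels within both of these classes, by 0.59 and 0.95. In the other 3 of the 5 wildtype classes compared it was higher with TNF, up to 1.61 in Enteroendocrine (5 and 22 UMIs), with counting intervals that overlapped. The mesenchyme also had more Bcl2l1 with TNF, past the fold in both genotypes, at 28.7, 46.5, 43.2 and 68.3 CPM. Within Mesenchyme-Ptges the difference was 0.41 in wildtype, short of the fold, on 12 untreated UMIs with overlapping counting intervals. In Tnfr2-/- cells of that class it was 0.69, past the fold with intervals apart. In the wildtype epithelium, class shares alone gave 0.70 and levels within classes -0.56, out of -0.04 over the 5 classes compared. In Tnfr2-/- cells the differences within Progenitor.1 and Progenitor.2 were 0.02 and 0.13, and shares alone gave 0.80 out of 0.93. Between genotypes with TNF, the difference remained inside Progenitor.1 (1.08) and Progenitor.2 (1.02). Without TNF it was 0.47 and -0.06 there.

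The thinned share of cells with a Bcl2l1 UMI was 18.8%, 14.7%, 28.8% and 31.2% in Progenitor.1 and 48.8%, 38.8%, 52.8% and 57.2% in Progenitor.2 (unthinned 48.9%, 53.1%, 72.5% and 71.6%, then 58.1%, 71.1%, 82.8% and 86.6%). In wildtype cells the thinned shares without and with TNF had overlapping intervals in both classes, and the unthinned shares were higher with TNF. Thinning left out 19 of the 62 wildtype untreated Progenitor.2 cells. Against Bax, which encodes a pore-forming death protein of the same family, the balance of Bcl2l1 was 1.87 higher in Tnfr2-/- than in wildtype epithelium with TNF and 0.39 higher without. Bax itself was at 311, 287, 415 and 269 CPM. Both balances are of the epithelial sum, in which class shares differ between libraries. With TNF, the genotype difference of Bax was 0.33 in Progenitor.1 and 0.16 in Progenitor.2, beside 1.08 and 1.02 for Bcl2l1. Without TNF it was 0.23 and 0.16, beside 0.47 and -0.06 for Bcl2l1.

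Bcl2l1 lies on chromosome 2, where the median gene was 0.22 (untreated) and 0.23 (TNF) higher in Tnfr2-/- epithelium than the median of all genes. Relative to the genes of its chromosome the Bcl2l1 differences were 0.45 and 1.68. Chromosome 19, with Fas, stood 0.40 and 0.44 above, and chromosomes 1 and 3, with Casp8, Cflar and Mcl1, stood within 0.03 of 0. The part of these chromosome-wide shifts in the gene differences was not tested.

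Mcl1, a short-lived survival protein of the BCL2 family, was at 282, 230, 185 and 208 CPM in the epithelium. Both Tnfr2-/- libraries were lower than their wildtype counterparts, by 0.60 without TNF and 0.14 with it. TNF went with a lower level in wildtype (-0.29) and a higher one in Tnfr2-/- cells (0.17). Over the 5 wildtype classes compared, which leave out Absorptive, the TNF difference was 0.02. Mcl1 was highest in Absorptive, at 407 CPM in the wildtype untreated library that held nearly all such cells, and that class took 31.9% of that library's epithelial UMIs against 2.09% or less elsewhere. Within classes Mcl1 was lower in Tnfr2-/- than in wildtype cells in 4 of 4 classes without TNF (0.00 to 0.58 lower) and in 3 of 3 with TNF. In Progenitor.2 it was at 301, 296, 210 and 213 CPM, with the genotype differences -0.52 and -0.47, and in Progenitor.1 at 228, 205, 182 and 185.

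Xiap, the caspase inhibitor, hardly differed between libraries, at 61.1, 59.1, 53.5 and 59.8 CPM in the epithelium, with no difference beyond 0.19 either way. Progenitor.2 had more of it than Progenitor.1 in 4 of 4 libraries, by 0.39 to 0.78. Within Progenitor.2 the levels were 89.9, 85.8, 66.9 and 62.6 CPM, lower in Tnfr2-/- cells by 0.42 and 0.45, short of the fold. Xiap is X-linked, and in the epithelium the genes of that chromosome had a median 0.09 and 0.12 below that of all genes between genotypes. In Progenitor.2 it was 0.06 above without TNF and 0.11 below with it.

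Across the 4 libraries Progenitor.2 was thus higher than Progenitor.1 for Casp8, Cflar, Bcl2l1, Mcl1, Xiap and Fas, and lower for Fadd and Ripk3, in 4 of 4 libraries each. Counting intervals were apart in 4 of 4 libraries for Casp8, Cflar, Bcl2l1, Mcl1 and Xiap. They were apart in 3 for Fadd, 2 for Ripk3 and 1 for Fas, which stayed below 5 CPM in both classes. Mlkl was lower in 3 of 4, with intervals apart in 1. Since the classes were clustered on these cells' own genes, these are descriptions and no tests of the class. Neighbouring classes in the order of levels often overlapped in their ranges over libraries, in 5 of 10 neighbour pairs for Fadd, Fas and Mcl1, and in 8 of 10 for Xiap.

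The wider pathway moved in places in the epithelial sum, in which class shares differ between libraries. Of 22 tested genes of TNF and death receptor complexes, 7 were past the fold upward and 0 downward with TNF in wildtype epithelium, and 4 and 2 in Tnfr2-/- epithelium, where 8.20% and 12.1% of all genes were higher and 2.88% and 22.6% lower. Among 13 caspases and execution genes, wildtype cells had 2 higher and 0 lower with TNF and Tnfr2-/- cells had 0 higher and 3 lower. For 9 death genes of the BCL2 family these counts were 5 and 0, then 2 and 1, and for 8 other IAP genes 1 and 0, then 1 and 2. The other survival genes of the BCL2 family, of which 2 reached 5 CPM, gave 0 and 0, then 0 and 1, and the lytic death genes gave 1 and 0 of 10, then 2 and 4 of 11. Tnfaip3, the NF-kB feedback inhibitor A20, was at 23.6, 58.9, 31.3 and 93.0 CPM and higher with TNF by 1.28 and 1.54. Birc3, an IAP of the TNF receptor complex, was at 10.6, 28.1, 13.5 and 25.6 CPM and higher by 1.34 and 0.87. Pmaip1, whose product NOXA binds MCL1, was at 49.6, 103, 57.0 and 118 CPM and higher by 1.04 and 1.03. Tnf itself was at 12.5, 59.6, 40.9 and 71.7 CPM, higher by 2.17 and 0.79, and Tnfrsf1b was higher by 1.34 and 1.49.

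Between genotypes the lytic death genes leaned downward in the epithelial sum. Class shares differ between these libraries, with Absorptive at 31.9% of epithelial UMIs in wildtype untreated and 1.07% in Tnfr2-/- untreated cells. Levels within classes are not given for these genes, and the part of class shares in their differences was not tested. Of 11 tested, 2 were higher and 4 lower in Tnfr2-/- than in wildtype epithelium without TNF, and 1 and 6 with TNF, beside 12.0% and 7.35%, then 11.8% and 20.8%, of all genes. Pycard, the inflammasome adaptor ASC, was at 139, 111, 40.0 and 16.0 CPM, lower by 1.77 and 2.72. Casp1, the inflammasome caspase, was at 66.0, 70.6, 42.7 and 27.0 CPM, lower by 0.61 and 1.36. Naip1 (-1.47 and -0.99), Nlrp6 (-1.88 and -0.82) and Il18 (-1.16 and -0.77) complete the 5 genes of all lists that were past 1.5-fold lower in both pairs. Bcl2l11, which encodes the death protein BIM, went the other way, at 4.41, 9.43, 13.5 and 22.7 CPM, higher by 1.42 and 1.18, as did Rnf31, a subunit of the linear ubiquitin ligase, by 0.73 and 0.61. The caspases and execution genes gave 1 higher and 0 lower without TNF and 0 and 4 with it, the receptor complex genes 3 and 1 of 21, then 2 and 3 of 22, and the BCL2 family death genes 2 and 0, then 1 and 0. The other IAP genes gave 0 and 1, then 0 and 4, and the other BCL2 family survival genes 1 and 0, then 0 and 1.

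Other cell states moved with the libraries. The summed proliferation markers of the epithelium were at 498, 490, 771 and 248 CPM, those of dissociation stress at 2523, 3866, 2744 and 3068, those of interferon targets at 229, 178, 522 and 242, and those of p53 targets at 1390, 1560, 1539 and 1641. Proliferation markers were lowest where Progenitor.2 was largest, in the library in which Fadd and Mlkl were lowest and Cflar and Bcl2l1 highest. Their part in the results was not tested.

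Likeness across classes was measured as Pearson's r of log2(CPM + 1) over 22 class and library sums of at least 50 cells, which share libraries and differ in depth, among 10185 genes. The genes most like Casp8 were Rassf3 and Tec (0.92 each) and Mob1b (0.91), and those most like Cflar were Zdhhc18 (0.96), Itgav (0.95) and Smad7 (0.94). For Bcl2l1 they were Hspa1a (0.93), Npepps (0.92) and Slc35e4 (0.91). Fas was nearest Scara3, Rnf150 and Adgra2 (0.96 each), and Mlkl nearest Lipg, Psmb9 and Stc1 (0.94 each). Fadd was nearest Slc25a15 (0.83), Ripk3 nearest Fzr1 (0.80), Mcl1 nearest Sh3d21 (0.92) and Xiap nearest Map2k4 (0.91). Over the 16 epithelial sums alone, 0 of the 3 nearest genes stayed the same for Casp8, Fas, Ripk3, Mlkl, Bcl2l1 and Xiap, and 1 of 3 did for Fadd, Cflar and Mcl1. Among the 9 genes, the epithelial r was 0.84 for Cflar with Bcl2l1, 0.78 for Casp8 with Cflar and -0.73 for Fadd with Cflar. The other pairs are not given. Casp8, Cflar and Bcl2l1 were also higher, and Fadd lower, in Progenitor.2 than in Progenitor.1 in 4 of 4 libraries. The part of that class contrast in these values was not tested.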

How the data were processed

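Single-cell RNA of 4 libraries (1 per group) was read from the count matrix deposited by the authors, which holds whole-number UMI counts of 30360 genes in 6155 cells. Per the study's methods and the submitters' processing notes, the authors made the counts with Cell Ranger 5.0.0 on mm10 and took out epithelial-mesenchymal doublets. No doublet caller was run here. Cell classes were the authors' own. Plotting coordinates were not used.

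UMIs were summed per library over the epithelium, the mesenchyme or a class of at least 20 cells, scaled to CPM, and compared as differences of log2(CPM + 1). Groups of 1 library were compared without a test. Intervals at 95% are exact Poisson for sums and exact Clopper-Pearson for shares, and cover counting error only. The precision is thus that of 44547639 to 87228093 UMIs per library, without the spread between cultures or mice. Apart from the balances of Cflar with Casp8 and of Bcl2l1 with Bax, UMI counts of different genes were not compared as levels. Shares of cells were taken after thinning to 10000 UMIs.

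The members and lists were chosen with earlier results of these data known. The text names the 9 genes, the 2 receptors of TNF, the 3 genes most like each, and, of the pathway lists, genes past 1.5-fold the same way in both pairs with the largest smaller difference. Faddos, Gm45712, Gm37760, Gm27818, Fasl and Bax are named for their relation to a member. Upstream windows were those of RefSeq (GRCm38.p6), and positions those of GENCODE M21, which matched 30240 identifiers and missed 120. The counting was tested on simulated data. Alternatives were pseudocounts of 0.1 and 10 CPM, TMM (edgeR 4.0.16, R 4.3.3) and median-of-ratios scaling, other minimum levels, a 2-fold limit, other sets of cells, thinning to 5000 UMIs and centring by chromosome. Holding class shares equal and centring on all genes were chosen after seeing the data. Computation used python 3.11.15, numpy 2.4.6, scipy 1.17.1 and pandas 2.3.3.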

Additional observations from a re-analysis of the deposited data

Results flagged for a closer look

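In the epithelium, Progenitor.1 and Progenitor.2, 4 differences had opposite signs in the compared pairs with counting intervals apart in both pairs. Other sign changes had overlapping intervals in at least 1 pair and are not given. Each value is between single libraries, and the difference between the pairs was not tested. In the epithelium Mcl1 was lower with TNF in wildtype (-0.29) and higher in Tnfr2-/- cells (0.17). Over the 5 wildtype classes compared, which leave out Absorptive, the TNF difference of Mcl1 was 0.02. Over the 2 Tnfr2-/- classes compared it was 0.15. Within Progenitor.1 it was -0.16 in wildtype, with intervals apart, and 0.02 in Tnfr2-/- cells, with intervals overlapping. Within Progenitor.2 it was -0.02 in wildtype and 0.02 in Tnfr2-/- cells, with overlapping intervals in both. Epithelial Ripk3 was higher in Tnfr2-/- than in wildtype cells without TNF (0.17) and lower with TNF (-0.13). Casp8 was higher in Tnfr2-/- cells without TNF and lower with TNF within Progenitor.1 (0.33 and -0.41) and within Progenitor.2 (0.53 and -0.10).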

How the results depend on the processing

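No paired analysis was possible because the labels give 1 library per group, and for the same reason no library could be left out. Counts are of 8 genes past the fold, or of 9 in the mesenchyme, where Fas reached 5 CPM. With TNF in wildtype epithelium (2 as reported) it was 1 with a pseudocount of 10 CPM, TMM, median-of-ratios scaling, the mean over cells, equal class weights, class shares held equal and centring by chromosome, and 0 at 2-fold. With TNF in Tnfr2-/- cells (5) it was 3 with a pseudocount of 10 CPM, a minimum of 20 CPM, TMM, median-of-ratios scaling, all cells and either centring, 2 in the mesenchyme, and 0 at 2-fold, in each progenitor class alone, with equal class weights and with class shares held equal. Between genotypes without TNF (3) it was 1 with a pseudocount of 10 CPM, in Progenitor.2 and centred by chromosome, and 0 at 2-fold, in Progenitor.1 and with class weights or shares equal. With TNF (4) it was 2 with a pseudocount of 10 CPM or a minimum of 20 CPM, and 1 at 2-fold, in Progenitor.1, in the mesenchyme and with class weights or shares equal. Of called differences, 11 changed sign. With TNF in Tnfr2-/- cells, Cflar was -0.19 in Progenitor.1, -0.04 with equal class weights and -0.10 with class shares equal, Fadd was 0.02 in Progenitor.1 and 0.53 in the mesenchyme, and Casp8 and Mlkl were -0.19 and 0.15 in the mesenchyme. Between genotypes, Bcl2l1 without TNF was -0.06 in Progenitor.2, and with TNF Cflar was -0.12 in Progenitor.1 and Fadd and Mlkl were 0.00 and 0.05 in the mesenchyme. Casp8 with TNF in wildtype cells (0.49 to 0.98) and Bcl2l1 between genotypes with TNF (0.55 to 1.93) kept their direction in all 19 alternatives and passed the fold in 17 and 18.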
